A study of Eutrema with 12 samples.

Results

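The clones whose names on the array begin with the prefix sd followed by a digit numbered 38 of the 4279 cDNAs measured. They were picked by name alone, and the files used here do not pair any of them with a gene or a sequence and do not say what the prefix stands for. All 38 names carry 1 plate name, sd1, and a well. A cDNA was spotted 3 times in 37 cases, and 1 clone was spotted 6 times at 2 positions, which gives 117 spots in 26 of the 48 spotting blocks. Clone names are given for 2 clones called higher, 2 called lower and 2 called in neither direction, and the other clones are described by their values.

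Thellungiella salsuginea is a crucifer related to Arabidopsis that grows on saline, semi-arid ground in the Yukon and tolerates salt, cold and drought. Cauline leaves are the leaves borne on its flowering stems. The cDNAs on the array came from collections enriched for transcripts that respond to stress. Each sd spot is a clone of unknown identity here, and its ratio compares 2 RNA samples hybridized together.

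The field plants of 2005 were 3 individual Yukon-ecotype plants, A, B and C, taken from their natural habitat in a wet season. Those of 2003 were 3 individual plants of the same ecotype, A, B and C, taken there in a dry season. According to the study's methods, the field RNA came from cauline leaves of plants that were mature and in flower. The plant called C in the 2005 sample names is called D in the design description. Each field plant was hybridized on 2 arrays with the dyes Cy3 and Cy5 exchanged, 12 arrays in all, against cauline leaf RNA of untreated Yukon-ecotype plants that were 12 weeks old and grown in a cabinet. Ages of the field plants were not given. According to the sample records, the field mRNA was amplified in a single round and the cabinet mRNA was left unamplified, so amplification and growth site cannot be told apart in any ratio against the cabinet. Whether several field plants were set against the same cabinet RNA is not stated, and if they were, the spread among cabinet plants does not enter a test of the ratio against 0. Leaf markers could not be checked, because the clones carry no gene. In whole leaves, fewer cells of a type and less RNA per cell cannot be told apart.

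Each value is the log2 ratio of field over cabinet, so that 1 is a doubling in the field, averaged over the spots of a clone and the 2 arrays of a plant. A clone was called when its limma adjusted p (Benjamini-Hochberg over all 4279 cDNAs) was under 0.05 and its mean ratio was at least 1.5-fold, a log2 ratio of 0.58. On the 12 arrays the signal of the median spot exceeded its background 7.40 to 35.4 times in either channel, and the small number of plants and arrays limits the precision. The 2005 arrays were read on 2 days and the 2003 arrays on 4 days with none in common, so year and scan day cannot be told apart. Spots of a clone agreed closely: the median SD between spots on an array was 0.086 for the sd clones and 0.074 for all cDNAs, on the log2 scale. The SD between plants was larger, with a median over the sd clones of 0.24 in 2005 and 0.56 in 2003, against 0.24 and 0.38 for all cDNAs.

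Set against the cabinet, the sd clones had a median ratio above the cabinet in the field plants of 2005 and below it in those of 2003. In 2005, 9 of the 38 were called higher (23.7%), where 16.4% of all cDNAs were, and 2 were called lower (5.26%), where 15.1% of all cDNAs were. In 2003, 2 were called higher (5.26%), where 10.0% of all cDNAs were, and 8 were called lower (21.1%), where 7.31% of all cDNAs were. The median ratio of the sd clones was 0.28 in 2005 and -0.40 in 2003, beside medians of -0.03 and -0.0028 over all cDNAs. A list has no test of its own here, since its clones share arrays and RNA.

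The pattern was seen plant by plant. In 2005 the median over the 38 clones was 0.06 in plant A, 0.47 in plant B and 0.34 in plant C, and in 2003 it was -0.40 in plant A, -0.56 in plant B and -0.05 in plant C. The medians of the 2 years did not overlap, but plant A of 2005 and plant C of 2003 were close to each other and to 0. The number of clones above the cabinet was 20, 26 and 24 in plants A, B and C of 2005, and 8, 12 and 19 in plants A, B and C of 2003. On single arrays the medians of the sd clones ran between -0.03 and 0.53 in 2005 and between -0.74 and 0.04 in 2003, and those of all cDNAs between -0.05 and 0.04 over both years.

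**Figure D1:**
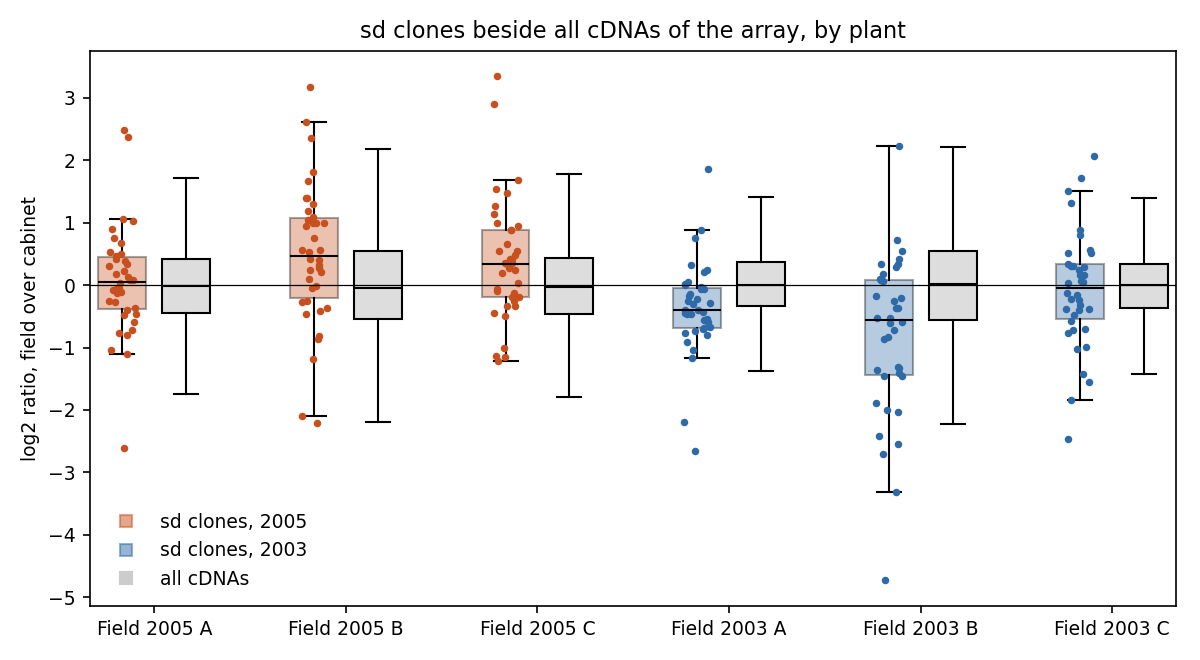
Log2 ratio of field over cabinet (vertical axis) for the 38 sd clones (coloured boxes and points, orange 2005 and blue 2003) and for all 4279 cDNAs (grey boxes) in each of the 6 field plants. Boxes span the quartiles with the median as a line, whiskers reach the last value within 1.5 box lengths and values beyond them are drawn for the sd clones only; the sd medians lie between 0.06 and 0.47 in 2005 and between -0.56 and -0.05 in 2003.

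Plants of a year did not stand alike. Plant B held the lowest 2003 value of 22 clones (57.9%, against 36.6% of all cDNAs), plant A that of 13 and plant C that of 3. In 2005 plant A held the lowest value of 28 clones (73.7%, against 35.5% of all cDNAs). The arrays of plants B and C of 2005 were read on the same day and those of plant A on another, so plant A and its scan day cannot be told apart. All 3 plants of 2005 lay above the cabinet for 19 of the 38 clones (against 36.1% of all cDNAs) and below it for 10 (26.3%, against 38.8%). All 3 plants of 2003 lay above it for 5 clones (13.2%, against 27.1% of all cDNAs) and below it for 17 (44.7%, against 26.0%). The remaining clones, 9 in 2005 and 16 in 2003, had plants on both sides.

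**Figure D2:**
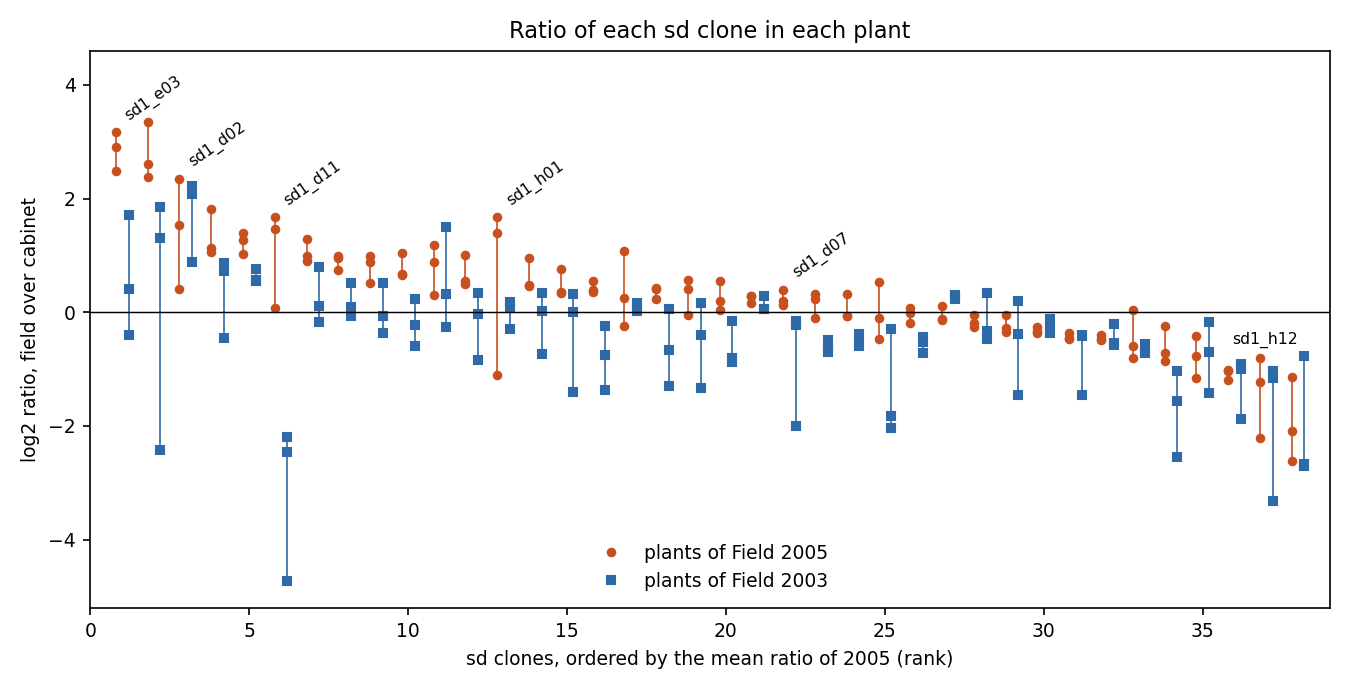
Log2 ratio of field over cabinet (vertical axis) of each of the 38 sd clones, ordered along the horizontal axis by the mean ratio of 2005, with 1 point per plant (orange circles 2005, blue squares 2003) and a line from the lowest to the highest plant of a year. The 3 plants of 2005 lie above all 3 of 2003 for 20 clones and below them for 1.

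Clones called higher in 2005 had mean log2 ratios between 0.79 and 2.85, with limma adjusted p between 0.00282 and 0.0345. Their mean ratios in 2003 lay between -0.19 and 1.72, above 0 in 8 of the 9. Without plant A of 2005, 6 clones were called higher in 2005, and without plant B or plant C of 2005 it was 2 each. The share over all cDNAs is not given for these fits, so the counts cannot be set against the array.

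The highest mean of 2005 was that of sd1_e03. In 2005 its log2 ratio was 2.48 in plant A, 3.17 in plant B and 2.91 in plant C, and in 2003 it was -0.39, 0.41 and 1.71 in plants A, B and C. Every plant of 2005 stood above every plant of 2003, and the 2003 plants spread over both sides of the cabinet. The mean was 2.85 ± 0.34 in 2005 (SD, n = 3 plants, limma adjusted p = 0.00352), a 7.22-fold higher level in the field, and 0.58 ± 1.06 in 2003 (SD, n = 3, limma adjusted p = 0.305). The clone was 37.9 times as bright as its background in the field channel of the 2005 arrays and 6.21 times in the cabinet channel. On the 2003 arrays it was 7.41 times as bright in the field channel and 6.30 times in the cabinet channel.

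In both years sd1_d02 was higher in the field. Its log2 ratio was 0.41, 2.35 and 1.53 in plants A, B and C of 2005, and 0.88, 2.22 and 2.07 in plants A, B and C of 2003. Plant A was the lowest of its year in both years, and the range of 2005 enclosed that of 2003. The mean was 1.43 ± 0.97 in 2005 (SD, n = 3, limma adjusted p = 0.0345) and 1.72 ± 0.74 in 2003 (SD, n = 3, limma adjusted p = 0.0318), which are 2.70-fold and 3.30-fold. Its 2005 call was lost when plant B of 2005 (limma adjusted p = 0.176), plant C of 2005 (0.137) or plant C of 2003 (0.0535) was left out. With 1 loess curve per spotting block the adjusted p was 0.0537 in 2005 and 0.0570 in 2003. With scan day as a random block over the arrays it was 0.0512 in 2005 (limma adjusted p), and the 2005 call was also lost at the unadjusted limit of 0.01. The 2003 call was lost without plant B of 2003 (limma adjusted p = 0.122), plant C of 2003 (0.114) or plant C of 2005 (0.0646), and with 2003 fitted alone (0.0769). Over 23 alternatives the adjusted p of sd1_d02 ran between 0.00118 and 0.176 in 2005 and between 0.000478 and 0.122 in 2003. Both lowest values came with the 12 arrays as independent replicates, which counts the 2 arrays of a plant as separate.

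Another clone called higher in 2005 varied most between the plants of 2003. In 2005 it stood at 2.38, 2.61 and 3.35 in plants A, B and C (mean 2.78 ± 0.51, SD, n = 3, limma adjusted p = 0.0320). In 2003 it stood at 1.86, -2.42 and 1.31, so that plant B lay far below the cabinet while plants A and C lay above it (mean 0.25 ± 2.33, SD, n = 3). The clone with 6 spots was also called higher in 2005, at 0.75, 1.00 and 0.95 in plants A, B and C (limma adjusted p = 0.00809). In 2003 its plants stood at -0.06, 0.09 and 0.52. Its 2 positions on the array gave means of 0.74 and 1.05 in 2005, and 0.05 and 0.31 in 2003, and both placed every plant of 2005 above the cabinet.

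Clones called lower in 2003 had mean log2 ratios between -3.13 and -0.59, with limma adjusted p between 0.0140 and 0.0488. Their means in 2005 lay between -1.95 and 1.07, below 0 for 5 and above 0 for 3 of the 8. With each year fitted alone, 0 sd clones were called in 2003, in either direction (limma), with 15 at an unadjusted p under 0.05. In the joint fit 18 sd clones had an unadjusted limma p under 0.05 in 2003, as did 1595 of all 4279 cDNAs. Without plant B of 2003, 3 sd clones were called lower. The share over all cDNAs is not given for 2003 fitted alone or without plant B, so these counts cannot be set against the array.

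The lowest mean of 2003 was that of sd1_d11. Its log2 ratio was 0.08, 1.67 and 1.47 in plants A, B and C of 2005, and -2.19, -4.73 and -2.46 in plants A, B and C of 2003. No plant of 2005 lay below the cabinet and none of 2003 lay near it. The 2005 mean of 1.07 ± 0.87 did not pass the test (SD, n = 3, limma adjusted p = 0.160), and the 2003 mean of -3.13 ± 1.40 was called (SD, n = 3, limma adjusted p = 0.0143), an 8.73-fold lower level in the field. With 2003 fitted alone its adjusted p was 0.0769, the highest over 23 alternatives, and without plant B of 2003 its 2005 mean was called (limma adjusted p = 0.0404). The 3 spots gave means of 1.04 to 1.10 in 2005 and of -3.25 to -3.04 in 2003. In the field channel the clone was 87.9 times as bright as its background on the 2005 arrays and 10.5 times on the 2003 arrays, and in the cabinet channel 44.6 times and 58.6 times.

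A clone lower in the field in both years was sd1_h12. Its log2 ratio was -2.61, -2.09 and -1.14 in plants A, B and C of 2005, and -2.66, -2.70 and -0.77 in plants A, B and C of 2003. Plant C was the least low of its year in both years, and the years overlapped. The mean was -1.95 ± 0.75 in 2005 (SD, n = 3, limma adjusted p = 0.0173) and -2.05 ± 1.10 in 2003 (SD, n = 3, limma adjusted p = 0.0247), the second a 4.13-fold lower level in the field. In the field channel of the 2005 arrays it was 3.34 times as bright as its background, no more than the 3.38 times of spots without a name. Its field transcript there cannot be told from the level of those spots, and its 2005 ratio gives only a limit to how much lower it was. On the 2003 arrays its field channel was 4.45 times as bright, near the 3.85 times of those spots, so the 4.13-fold is also taken near that level. Its 2 arrays of 2003 stood at -2.91 and -2.42 in plant A, -3.51 and -1.89 in plant B, and -1.23 and -0.32 in plant C. The 2005 call was lost when plant A or plant B of 2005 was left out (limma adjusted p = 0.0880 and 0.0974). In 2003 it was lost without plant A of 2003 (0.0759), without plant B of 2003 (0.0982) and with 2003 fitted alone (0.0881). The other alternatives of the 23 kept the calls of sd1_h12, and the highest adjusted p was 0.0974 in 2005 and 0.0982 in 2003.

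**Figure D3:**
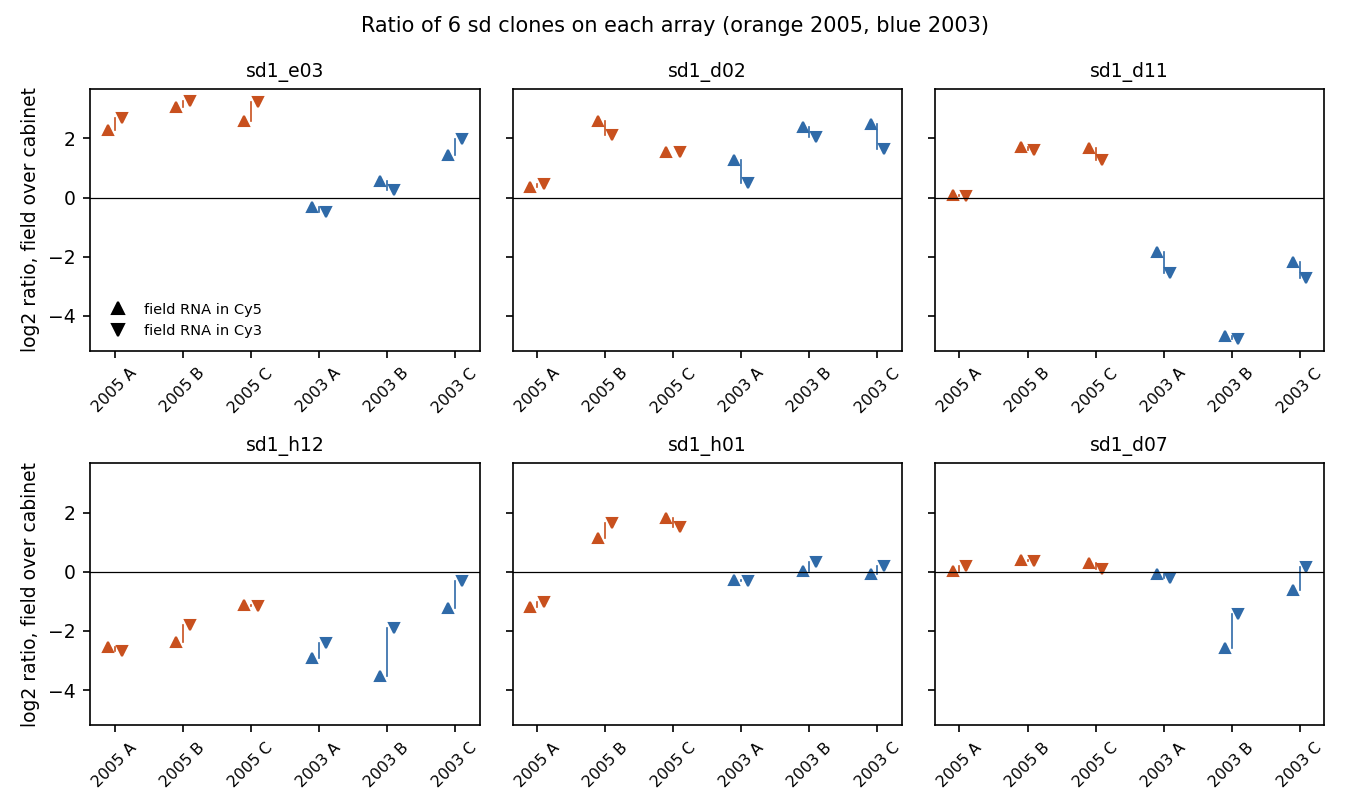
Log2 ratio of field over cabinet (vertical axis) of 6 sd clones on each of the 2 arrays of a plant (horizontal axis, orange 2005 and blue 2003), with triangles pointing up where the field RNA carried Cy5 and down where it carried Cy3. For sd1_d11 the arrays of the 2005 plants lie between 0.07 and 1.73 and those of the 2003 plants between -4.78 and -1.82.

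The study sampled a wet and a dry season, and the contrast of the years asks how the field ratios of the same clones differed between them. For 32 of the 38 sd clones (84.2%) the ratio was higher in 2005 than in 2003, against 48.3% of all cDNAs. The year differences ran between -0.33 and 4.20, with a median of 0.69 beside -0.02 over all cDNAs. Over 1 log2 unit higher in 2005 were 7 clones (18.4%, against 6.73% of all cDNAs), and no clone was over 1 unit lower. The differences of the single clones did not pass the adjusted test: 0 were called in either direction (limma), where 1.59% of all cDNAs were, and the lowest adjusted p was 0.0528. With the plant letter as a block, 2 were called, as given for sd1_d11 and sd1_e03 with their values. At an unadjusted p under 0.05, 16 sd clones (42.1%) were higher in 2005, where 12.7% of all cDNAs were, and 0 were lower, where 14.5% were.

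The plants of the 2 years were then set apart without a model. All 3 plants of 2005 stood above all 3 of 2003 for 20 sd clones (52.6%), where this held for 16.8% of all cDNAs. The reverse held for 1 sd clone (2.63%) and for 17.9% of all cDNAs. For 4 clones (10.5%) the plants of 2005 were all above the cabinet and those of 2003 all below it, which was so for 3.25% of all cDNAs.

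Of the 4279 cDNAs, sd1_d11 had the largest difference in the direction of 2005, 4.20 ± 0.75 (SE, limma adjusted p = 0.0528), which is 18.4-fold. Among the other named clones sd1_e03 differed most, by 2.28 ± 0.53 (SE, limma adjusted p = 0.0645). Plants of the 2 years share letters, and deviations from the year means ran together between plants of the same letter. The letters were taken to pair the plants from these same ratios and not from the labels, so the block is not independent of them. With the letter as a block in the fit, both differences passed, for sd1_d11 at a limma adjusted p of 0.0454 and for sd1_e03 at 0.0426, and these were the 2 sd clones called (5.26%), where 8.25% of all cDNAs were. Over 22 alternatives the limma adjusted p of sd1_d11 ran between 0.000195 and 0.190, and it was called in 12 of them. That of sd1_e03 ran between 0.000882 and 0.222, with 6 calls. Both lowest values came with the 12 arrays as independent replicates, which counts the 2 arrays of a plant as separate. The calls of each clone include that setting, scan day fitted over the arrays, and the unadjusted limit of 0.01, where the adjusted p stayed at 0.0528 and 0.0645. Without plant B of 2003 sd1_d11 was called (0.0448), and without plant C of 2003 sd1_e03 was (0.0400). The same block put 4 sd clones (10.5%) among those lower in 2005, where 17.7% of all cDNAs were. For sd1_d02 and sd1_h12 the years differed by -0.29 ± 0.57 and 0.10 ± 0.62 (SE, limma adjusted p = 0.768 and 0.936).

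**Figure D4:**
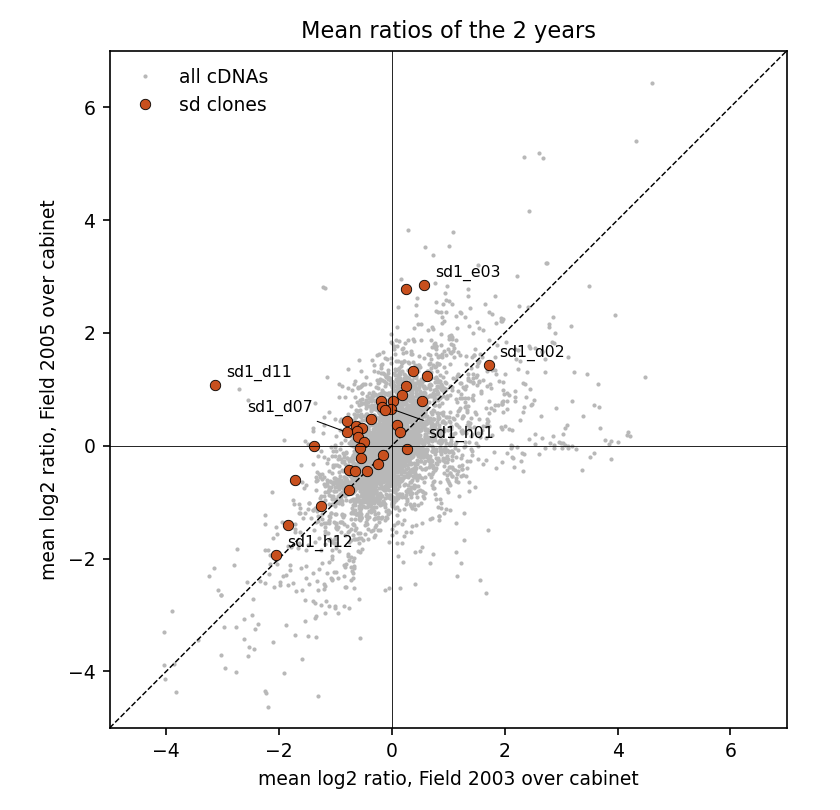
Mean log2 ratio of Field 2005 over cabinet (vertical axis) against that of Field 2003 over cabinet (horizontal axis) for the 38 sd clones (orange) and all 4279 cDNAs (grey), with the line of equal ratios dashed. The 32 sd clones above the line have a higher ratio in 2005, and sd1_d11 stands farthest from it among them.

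In neither year nor between the years were 21 of the sd clones called. The share of all cDNAs called in no comparison is not given, so this count cannot be set against the array. The one with the widest spread between plants of 2005, sd1_h01, stood at -1.10, 1.39 and 1.68 in plants A, B and C of 2005, and at -0.29, 0.18 and 0.07 in those of 2003. Plant A of 2005, read on a day of its own, lay on the other side of the cabinet from plants B and C, on both of its arrays, while the 2003 plants lay close to the cabinet. Its means were 0.65 ± 1.53 in 2005 and -0.01 ± 0.24 in 2003 (SD, n = 3 each, limma adjusted p = 0.342 and 0.987). The uncalled clone with the largest year difference, sd1_d07, stood at 0.12, 0.39 and 0.19 in plants A, B and C of 2005, and at -0.15, -2.01 and -0.22 in those of 2003. Plant B of 2003 lay far below the others, and the difference of 1.03 ± 0.50 did not pass the test (SE, limma adjusted p = 0.238). Among the 21 uncalled clones, 2 had an adjusted p under 0.05 but stayed under the fold limit, 1 in each year.

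A ratio can differ between years through either RNA, and the 2 channels were therefore read apart, after scaling of the arrays to a common brightness (loess, then quantiles of the mean log2 brightness). Levels read this way are open to dye bias and to differences between arrays in the printed spots, though each plant has both dye orientations. Over the sd clones the median level on the 2005 arrays, minus that on the 2003 arrays, was 0.18 in the field channel and -0.40 in the cabinet channel (log2), against -0.01 and 0.05 for all cDNAs. The field level was higher on the 2005 arrays for 19 of the 38 clones, and the cabinet level was lower there for 25. Field and cabinet levels of a clone moved together between the arrays of the 2 years, by -1.29 to 4.39 in the field channel and by -2.15 to 3.36 in the cabinet channel. Across the 38 clones, which are not independent replicates and share arrays and spots, Pearson's r was 0.83, as it was across all cDNAs (0.83). For 12 clones both channels moved by over 1 log2 unit the same way. Over all cDNAs the field channel changed by -7.92 to 5.94 and the cabinet channel by -6.69 to 6.14. Shares over all cDNAs are not given for the counts of 19, 25 and 12 clones, so these cannot be set against the array.

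**Figure D5:**
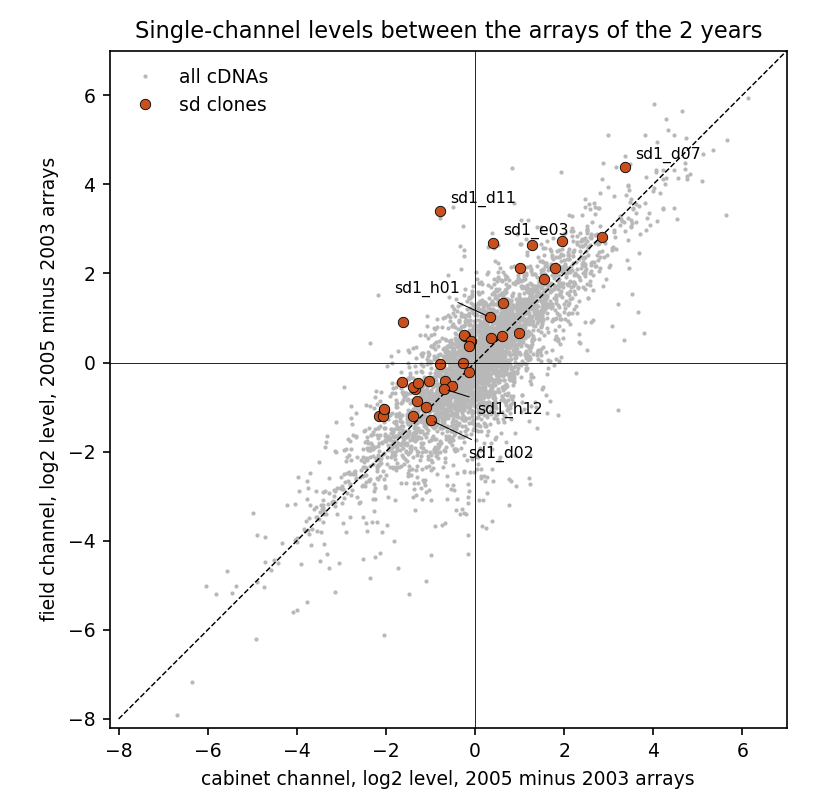
Change in the log2 level of the field channel (vertical axis) against that of the cabinet channel (horizontal axis), arrays of 2005 minus arrays of 2003, for the 38 sd clones (orange) and all 4279 cDNAs (grey), with the line of equal change dashed. Of the named clones, sd1_h12 lies close to the line at -0.59 and -0.69, sd1_d07 above it at 4.39 and 3.36, and sd1_d11 farthest above it at 3.41 and -0.79.

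Named clones differed in which channel moved. On the 2005 arrays, relative to those of 2003, the field level of sd1_d11 changed by 3.41 and its cabinet level by -0.79, and for sd1_e03 the changes were 2.68 in the field channel and 0.40 in the cabinet channel. In sd1_d07 the 2 channels changed by 4.39 and 3.36, far more than its ratio. What part the arrays of a year had in these changes was not tested.

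Most sd clones were well above the unnamed spots. In the median clone the field channel was 25.8 times as bright as its background on the 2005 arrays and 10.9 times on the 2003 arrays, against 22.2 and 15.2 times over all cDNAs. The cabinet channel was 18.4 times as bright on the 2005 arrays and 18.9 times on the 2003 arrays, against 21.8 and 19.9 times. The median unnamed spot, of content unknown here, exceeded its background 3.38 times in the field channel of the 2005 arrays. In that of the 2003 arrays it did so 3.85 times. No brighter than this in the field channel were 3 sd clones in 2005 and 1 in 2003. For the field channel alone the share over all cDNAs is not given. In both channels at once this held for 1 of the 38 sd clones in 2005 and for 0 in 2003. Of all 4279 cDNAs it held for 231 in 2005 and 166 in 2003. Nearly all ratios thus rest on at least 1 channel above the median unnamed spot. Where the other channel is at that level, the ratio gives only a limit. In the field channel of the 2003 arrays, 1 clone called lower in 2003 stood at 3.95 times its background, close to the 3.85 times of the median unnamed spot.

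Beside the sd clones the array holds 135 clones with the prefix sc and 36 with the prefix ss. The median ratio of the sc clones was 0.21 in 2005 and 0.28 in 2003, and that of the ss clones 0.44 in 2005 and 0.03 in 2003. Their median year differences were -0.06 and 0.27, beside 0.69 for the sd clones. Called higher in 2005 were 32 of the sc clones (23.7%) and 13 of the ss clones (36.1%), beside 23.7% of the sd clones, so the sd share in that direction did not stand above theirs. Called lower in 2003 were 4 of the sc clones (2.96%) and 1 of the ss clones (2.78%), beside 21.1% of the sd clones. The ratio was higher in 2005 for 42.2% of the sc clones and 61.1% of the ss clones, beside 84.2% of the sd clones. These are descriptions of lists, and a difference between lists was not tested.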

How the data were processed

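Members were the cDNAs whose spot name, without its trailing letter, begins with sd and a digit. Members and lists were chosen with earlier results of these data known. The authors deposited spot and background intensity of both channels, linear and not background-subtracted, as QuantArray tables. The authors also deposited processed values on a log10 scale, with their normalization not given in the sources used here. They correlated at 0.936 to 0.992 with the log10 scanner ratio of field over cabinet, had column medians between -0.0188 and 0.0126, and entered as an alternative. The intensities were processed in limma 3.58.1 (R 4.3.3) by normexp correction (offset 50), loess with control spots at weight 0, averaging over spots and over both arrays of a plant, and a fit over the 6 plants with a mean per year (4 residual and 2.66 prior degrees of freedom). The procedure was also run on simulated data with independent noise in each plant, and the outcome is not given here. That setting lacks the shared deviations of same-letter plants described below, so it cannot speak for tests that they affect. Named clones were those with the largest absolute ratio among the called, 1 per year and direction, and 2 uncalled clones for the property stated. No saturated spot was among the members, and the Ignore Filter marked 3 of their readings. Same-letter plants of the 2 years deviated together from the year means (r = 0.243 to 0.576 across cDNAs, against -0.331 to 0.0515 for different letters). Deviations are taken from the mean of a year's own plants, so a positive r for the same letter lowers those for different letters. The 2 ranges are therefore not independent. The letters were taken to pair the plants, from the data and not the labels, so the block rests on the ratios it was used to test. The methods' Bayesian model and their count of 12 arrays as replicates were not the main test; the second was an alternative.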

Additional observations from a re-analysis of the deposited data

Results flagged for a closer look

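Flagged were 4 clones for which every plant of 2005 lay above the cabinet and every plant of 2003 below it. The year difference was 4.20 for sd1_d11 (limma adjusted p = 0.0528) and 1.03 for sd1_d07 (0.238). For 2 further clones it was 1.22 and 0.87 (limma adjusted p = 0.0728 and 0.110). Plants of the former stood at 0.39, 0.55 and 0.35 in 2005 and at -0.76, -1.37 and -0.24 in 2003. Those of the latter stood at 0.03, 0.20 and 0.55 in 2005 and at -0.80, -0.87 and -0.15 in 2003. None of the 4 differences passed the adjusted test of the main fit. Groups of 3 plants are too small to mark a single plant as standing apart.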

How the results depend on the processing

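The medians of the sd clones kept their sign under every alternative run, at 0.23 to 0.29 in 2005, -0.40 to -0.31 in 2003 and 0.62 to 0.73 for the difference, and without 1 plant at 0.20 to 0.40, -0.48 to -0.19 and 0.53 to 0.82. Counts moved more. Clones called between the years (0) were 2 with no background subtraction, 1 with plain subtraction, 1 with median centring, 2 with arrays scaled to a common spread, 1 with the deposited processed values, 1 with the median over spots, 18 with the 12 arrays as independent replicates, 3 with scan day as a random block (arrays as units, within-day correlation 0.609), 5 at an unadjusted p under 0.01 and 1 with robust, trended eBayes. With the plant letter as a replicate block they were 2 (5.26%, where 8.25% of all cDNAs were called). With that block 4 were called lower in 2005 (10.5%, where 17.7% of all cDNAs were), and 2 without it. The block moved no other count of sd clones by over 1.5 times. Called lower in 2005 were 5 with arrays as replicates and 5 with each year fitted alone. Called lower in 2003 (8) were 5 with plain subtraction, 14 with arrays as replicates, 13 with scan day and 0 with each year alone. Called higher in 2003 (2) were 1 with no background subtraction, 1 with median centring (11 lower), 1 with the deposited values (10 lower), 0 with print-tip loess (7 lower) and 0 with each year alone. Without 1 plant, 2 to 12 were called higher and 0 to 5 lower in 2005, 0 to 2 higher and 3 to 7 lower in 2003, and 0 to 2 between the years. Called higher in 2005 were 2 without plant B or C of 2005. Called lower in 2005 were 0 without plant A of 2005, 0 without plant B, 1 without plant C and 5 without plant B of 2003. Called lower in 2003 were 4 without plant A and 3 without plant B of 2003, 4 without plant A or B of 2005 and 5 without plant C of 2005. Called higher in 2003 were 0 without plant C of 2003 or of 2005, and 1 without plant A of either year or plant B of 2003. Called between the years were 1 without plant B and 2 without plant C of 2003. The cause of these moves was not tested. The filter on dim spots removed 0 spots. The alternative without spots marked by the Ignore Filter was chosen after seeing the data and moved none of these counts. Scan day was fitted over arrays because at most 2 plants share a day.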
